A study of Rattus norvegicus with 9 samples.

Results

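The inhibin, activin and follistatin genes studied here were 10: the subunit genes Inha, Inhba, Inhbb, Inhbc and Inhbe, the antagonist genes Fst and Fstl3, and the receptor genes Acvr1b, Acvr2a and Acvr2b. They were taken by symbol from a table of read counts for 24496 genes in rat liver, and all 10 were found in it. Each of the 9 libraries came from 1 female Wistar rat, so a replicate is an animal. All rats ate western diet from 10 weeks of age, lost their ovaries after 6 weeks of it, and were given degarelix, a drug that blocks the receptor for gonadotropin-releasing hormone. Their osmotic pumps held either vehicle (5 rats) or follicle-stimulating hormone (FSH) at 6 µg per kg per day (4 rats). Food was restricted for 12 days and free for the following 7, and livers were collected at 19 weeks of age, 4 h after food was withdrawn. No intact animals and no animals without degarelix are among these groups, and the source of the FSH is not given in the sources used here.

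Inhibins and activins are paired subunits of the transforming growth factor beta (TGF-beta) family. An alpha subunit (Inha) joined to a beta subunit makes an inhibin, and beta subunits joined to each other make activins. Activin promotes FSH secretion by the pituitary, inhibin from the ovary restrains it, and follistatin binds and neutralises activin. In the liver, hepatocytes are known for making the beta C and beta E subunits. Activins signal through a type II receptor (Acvr2a or Acvr2b), which recruits a type I receptor (Acvr1b, also called ALK4) that phosphorylates Smad2 and Smad3.

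Library totals ranged from 19295580 to 28672439 counts. Values are given as reads and as CPM, which is reads per 1e6 counts of the library after scaling. In these libraries 1 read equals between 0.0353 and 0.0531 CPM. The tissue label was borne out by all 8 hepatocyte markers, and Alb, the gene of serum albumin, took 10.5 to 19.4% of counts, the highest share in FSH replicate 1. The FSH receptor gene Fshr had 0 reads in every library, as had 8868 genes in all. Reads were not corrected for transcript length, so levels are compared between libraries and not between genes.

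Of the 10 genes, 6 passed the filter on low counts (Inhba, Inhbc, Inhbe, Acvr1b, Acvr2a and Acvr2b), and 4 did not (Inha, Inhbb, Fst and Fstl3). No member passed a false discovery rate of 0.05 in edgeR, where 4 of 11924 tested genes did (0.0335%). The samples are bulk tissue, in which fewer cells of a type and less RNA per cell cannot be told apart. None of the 6 had an unadjusted p under 0.05, against 11.6% of all tested genes. In a fit without the filter, which holds all 10, none passed 0.05 after adjustment (0.0192% of 15628 genes did). In that fit 1 of 10 members, Inhbb, had an unadjusted p under 0.05, against 9.61% of genes. DESeq2 also called 0 of the 6, with no adjusted p for Acvr2b, and 1.54% of all genes. The fitted change was positive for 5 of the 6 genes kept by the filter, and for 8 of all 10 in the fit without it. It was negative for Fstl3 and Acvr2b. The signs of Inhba and Fst turned in some fits that left out 1 animal. Among all genes tested with the filter the change was positive for 6022 and negative for 5902, with a median log2 fold change of 0.0019.

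**Figure D1:**
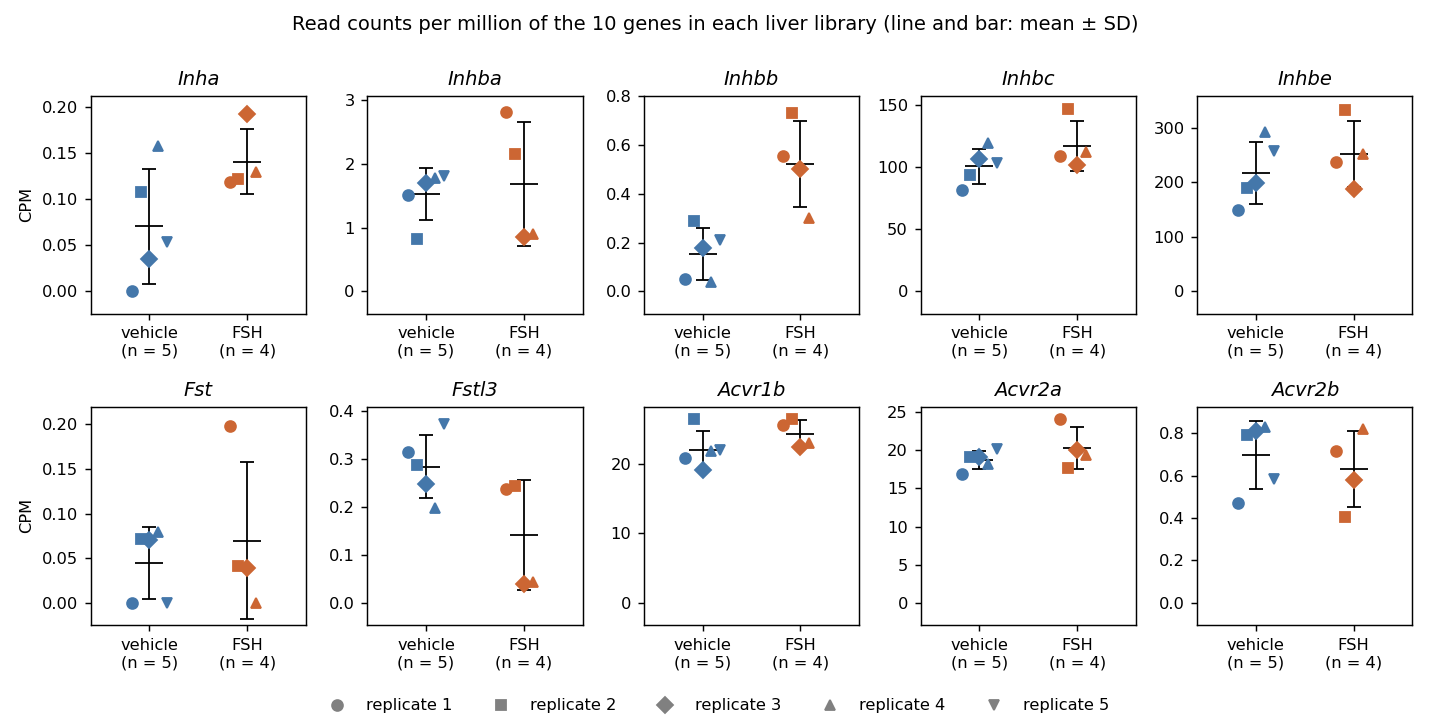
CPM of each of the 10 genes in each liver library, in vehicle (blue, n = 5) and FSH (orange, n = 4) animals; each symbol shape is a replicate number, and the black line and bar are the group mean and SD. Inhbb is the only panel in which every FSH library lies above every vehicle library, at under 1 CPM throughout.

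The well-measured subunit genes of these livers were Inhbc and Inhbe, which encode the inhibin beta C and beta E subunits. In RefSeq's order of genes they are next to each other, with 0 entries between them, on the same strand. Their levels varied together from animal to animal, so the 250 bases before each start site are shown side by side. The promoter of Inhbb is added because that gene differed most between the groups. The sequences are RefSeq's for build GRCr8, not the build of the counts (rn6), and are written 5′ to 3′ on the gene's strand. Their positions are chr7:65064520-65064769 for Inhbe, chr7:65082920-65083169 for Inhbc and chr13:33089374-33089623 for Inhbb, all on the minus strand. Capitals mark matches to 5 motifs, which were searched on both strands: the C/EBP-ATF element TGATGNAA, the cyclic AMP response element TGACGTCA, the TATA box TATAAA, the CCAAT box CCAAT and the GC box GGGCGG.
Inhbe: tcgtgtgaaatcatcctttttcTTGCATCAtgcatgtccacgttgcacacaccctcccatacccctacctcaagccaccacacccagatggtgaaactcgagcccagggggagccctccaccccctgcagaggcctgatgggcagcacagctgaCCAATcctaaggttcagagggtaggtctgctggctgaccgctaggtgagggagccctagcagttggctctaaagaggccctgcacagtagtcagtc
Inhbc: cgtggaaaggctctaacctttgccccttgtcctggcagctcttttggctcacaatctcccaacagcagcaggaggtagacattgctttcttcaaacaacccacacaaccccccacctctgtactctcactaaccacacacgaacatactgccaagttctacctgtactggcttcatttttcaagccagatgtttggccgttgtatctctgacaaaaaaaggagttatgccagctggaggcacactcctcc
Inhbb: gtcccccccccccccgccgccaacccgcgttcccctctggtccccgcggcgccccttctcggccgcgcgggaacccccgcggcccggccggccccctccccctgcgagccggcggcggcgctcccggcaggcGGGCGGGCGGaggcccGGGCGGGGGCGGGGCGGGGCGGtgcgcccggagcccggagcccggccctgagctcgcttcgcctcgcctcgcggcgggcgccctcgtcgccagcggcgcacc

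The Inhbe window holds 1 C/EBP-ATF element, read as TTGCATCA on the gene's strand, from 228 to 221 bases before the start. Such elements are bound by pairs of ATF4 and C/EBP proteins in amino acid and endoplasmic reticulum stress. Of 33465 rat promoters of this length 3.4% hold one. Inhbe also has a CCAAT box from 96 to 92 bases before the start, a motif present in 34.0% of promoters. The Inhbc window holds none of the 5 motifs. The Inhbb window differs from those of Inhbe and Inhbc: 86.8% of its bases are G or C, with 44 CpG dinucleotides. Its 6 GC boxes overlap or follow each other between 118 and 81 bases before the start. Such a window is not particular to Inhbb among the members. Acvr1b has 79.6% G or C and 39 CpGs, Acvr2b 76.8% and 31, and Fstl3 68.8% and 21, each with GC boxes. The GC box is found in 30.5% of promoters. Inhbe and Inhbc have 57.6 and 49.6% G or C and 4 and 3 CpGs, and the medians over all promoters are 51.2% and 5 CpGs. A promoter sequence was matched for 9 of the 10 members.

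Inhbe (ENSRNOG00000007601) had 2847 to 8206 reads per library. In vehicle replicates 1 to 5 its level was 149, 190.3, 199.8, 292 and 257 CPM. In FSH replicates 1 to 4 it was 237, 333, 187 and 252 CPM. The groups overlapped over most of their range, with the lowest animal in the vehicle group and the highest in the FSH group. FSH animals averaged 252 ± 60.5 CPM (SD, n = 4) and vehicle animals 218 ± 56.9 CPM (SD, n = 5). In edgeR the log2 fold change was 0.21 with a standard error (SE) of 0.21, a 95% interval from −0.25 to 0.67 and an adjusted p of 0.746. On the linear scale that interval runs from 0.842 to 1.59 times the vehicle level. Without FSH replicate 2 the log2 fold change was 0.046, and without vehicle replicate 4 it was 0.34. The 2 shallowest libraries, vehicle replicates 1 and 5, were the lowest and the next to highest of the vehicle group.

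Inhbc (ENSRNOG00000007700) had 1563 to 3628 reads per library. Its level was 81.8, 93.9, 106, 119 and 104 CPM in vehicle replicates 1 to 5. It was 109, 147, 102 and 113 CPM in FSH replicates 1 to 4. As for Inhbe, vehicle replicate 1 was lowest of all 9 and FSH replicate 2 highest, and the groups overlapped. FSH animals averaged 118 ± 20.2 CPM (SD, n = 4) and vehicle animals 101 ± 14.1 CPM (SD, n = 5). The fitted log2 fold change was 0.22 (adjusted p = 0.568 in edgeR, SE 0.13, 95% interval −0.07 to 0.51), which is 0.95 to 1.42 times the vehicle level. It was 0.089 without FSH replicate 2.

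Inhbc and Inhbe followed each other across the 9 animals. The correlation of their log2 CPM was r = 0.923 (exact permutation p = 0.000378, 0.00227 after Benjamini-Hochberg adjustment over 6 pairs). Spearman's rho was 0.883 (exact permutation p = 0.00308, adjusted 0.0185). These 6 pairs were formed by the 4 members with at least 100 reads in every library. Without the 2 animals farthest from the median of Inhbc, FSH replicate 2 and vehicle replicate 1, r was 0.809 (n = 7). Leaving out 1 animal at a time gave r from 0.873 to 0.956. Within the vehicle group r was 0.918 (n = 5) and within the FSH group 0.953 (n = 4), given as values only. All points share the scaling of their library, which moves both genes alike. With library totals alone in place of the scaling factors, r was 0.921 (exact permutation p = 0.000719). Those totals are also shared by both genes, so this value does not remove the shared scaling. Of the other pairs, which joined Inhbc, Inhbe, Acvr1b and Acvr2a, none had an adjusted exact permutation p under 0.68.

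**Figure D2:**
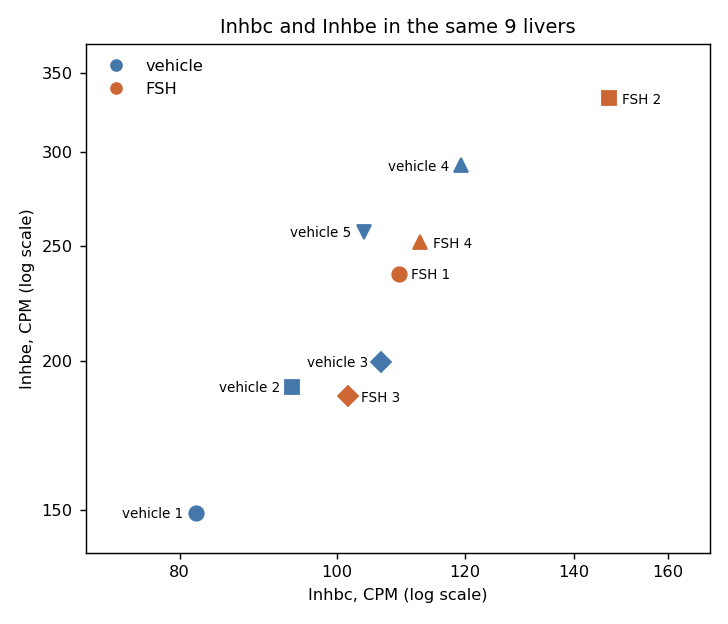
Level of Inhbe against that of Inhbc in the same library, in CPM on log axes, for 5 vehicle (blue) and 4 FSH (orange) animals. The points run from vehicle replicate 1 at the lower left to FSH replicate 2 at the upper right (r = 0.923), with the groups interleaved.

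Inhbe had 1.82, 2.03, 1.88, 2.45 and 2.47 reads for each Inhbc read in vehicle replicates 1 to 5, and 2.17, 2.26, 1.84 and 2.24 in FSH replicates 1 to 4. The ratio averaged 2.13 ± 0.313 (SD, n = 5) with vehicle and 2.13 ± 0.196 (n = 4) with FSH. The group means were equal to 3 digits, while single animals ranged from 1.82 to 2.47. Gene lengths cancel in this comparison between animals.

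Likeness of pattern was also ranked over 8001 other genes with a mean of at least 5 CPM, by correlation of log2 CPM after each group's mean was subtracted, over 9 libraries. For Inhbe the gene most like it was Inhbc (r = 0.93), followed by Fas, the death receptor gene (0.93), and Tab1, which encodes a partner of the kinase TAK1 (0.92). For Inhbc the most alike was Inhbe, followed by Rin3, a regulator of Rab5 (0.90), and Gtse1, a gene of the G2 and S phases (0.88). The top rank was not stable. When 1 animal was left out, Inhbc ranked between 1 and 21 for Inhbe, the last without vehicle replicate 1. Inhbe ranked between 1 and 14 for Inhbc, the last without vehicle replicate 4. In these fits the correlation between the subunit genes themselves ranged from 0.89 to 0.96, so several genes lay close to that value. Fst was too low to be ranked.

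Among the ranked genes, with a mean of at least 5 CPM, the others nearest along the chromosome did not share the pattern to that degree. Genes below that level were passed over. On the side of Inhbe, Arhgap9, Ddit3 and Mbd6 had r of −0.04, 0.05 and 0.06 with Inhbe. Ddit3 encodes CHOP, a C/EBP-family factor of the stress response. On the side of Inhbc, R3hdm2, Stac3 and Shmt2 had r of 0.03, −0.08 and −0.10 with Inhbc. The highest value of any of these 6 genes was 0.25, for R3hdm2 with Inhbe.

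**Figure D3:**
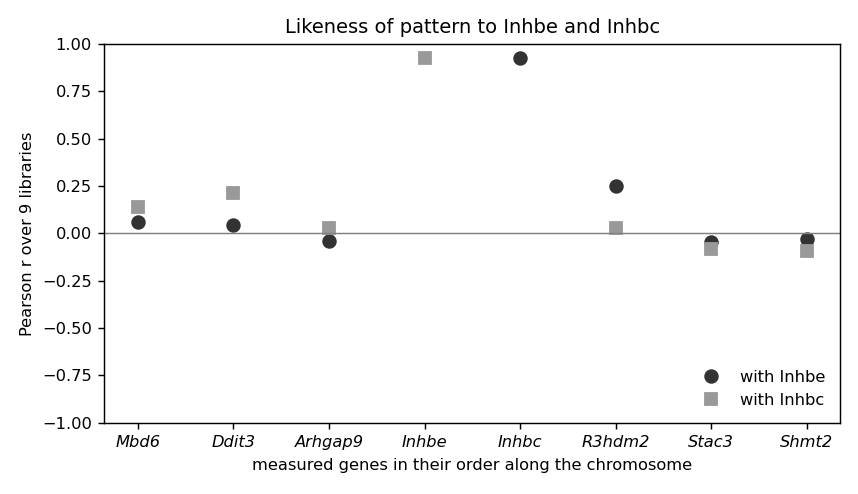
Pearson correlation with Inhbe (dark circles) and with Inhbc (grey squares) over 9 libraries, on log2 CPM after subtracting group means. The genes shown have a mean of at least 5 CPM and stand in their order along the chromosome. The Inhbe and Inhbc pair stands at 0.93, and the 3 genes on either side lie between −0.10 and 0.25.

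Inhbb (ENSRNOG00000060237) encodes the beta B subunit of inhibin B and activin B. It had 1, 8, 5, 1 and 4 reads in vehicle replicates 1 to 5 and 14, 18, 13 and 7 reads in FSH replicates 1 to 4. These are 0.0524, 0.288, 0.177, 0.0394 and 0.213 CPM with vehicle and 0.556, 0.730, 0.501 and 0.302 CPM with FSH. Every FSH library lay above every vehicle library, the only such case among the 10 members. Groups are apart in this way for 4.11% of the genes kept by the filter and for 3.39% of the 15628 genes in the fit without one. The margin was narrow: FSH replicate 4 with 7 reads has an exact Poisson interval of 2.81 to 14.4 reads, and vehicle replicate 2 with 8 reads one of 3.45 to 15.8, for counting error only. With library totals alone in place of the scaling factors, the groups overlapped.

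In the fit without a filter the log2 fold change of Inhbb was 1.70 (SE 0.47, 95% interval 0.66 to 2.73). Its unadjusted p was 0.00404 and its edgeR adjusted p over all genes 0.295. The interval corresponds to 1.58 to 6.65 times the vehicle level. DESeq2 gave 1.73 (SE 0.58) at an unadjusted p of 0.00289 and no adjusted p, since its own filter set the gene aside. Leaving out 1 animal at a time gave log2 fold changes from 1.44 to 2.08, with higher levels in the FSH group each time and adjusted p from 0.308 to 0.475. The difference of Inhbb therefore did not hold up against all genes tested, and it rests on 71 reads in 9 animals.

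Inhba (ENSRNOG00000014320), the gene of the beta A subunit found in activin A, had 21 to 71 reads. Its level was 1.52, 0.828, 1.70, 1.78 and 1.81 CPM in vehicle replicates 1 to 5 and 2.82, 2.15, 0.848 and 0.907 CPM in FSH replicates 1 to 4. The FSH animals fell on both sides of most vehicle animals, 2 above all of them and 2 near the lowest. The coefficient of variation was 57.5% with FSH and 26.6% with vehicle. Fitted over all animals, its log2 fold change was 0.15 (adjusted p = 0.916 in edgeR, SE 0.38, 95% interval −0.69 to 0.99). Its sign turned to −0.22 without FSH replicate 1 and to −0.018 without vehicle replicate 2.

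Inha (ENSRNOG00000020097), the alpha subunit that makes an inhibin of a beta subunit, was near the limit of detection. It had 0, 3, 1, 4 and 1 reads with vehicle and 3, 3, 5 and 3 reads with FSH. In the vehicle library with 0 reads, the floor used here for a count of 0, which is 3 reads, equals 0.157 CPM and covers counting error only. In the fit without a filter it had a log2 fold change of 0.87 (adjusted p = 0.674 in edgeR, SE 0.61), with an interval from −0.46 to 2.21. It was 1.34 without vehicle replicate 4 and 0.62 without vehicle replicate 1. A difference was not detectable at this depth.

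The antagonist genes were low as well. Fst (ENSRNOG00000011631), which encodes follistatin, had 0, 2, 2, 2 and 0 reads with vehicle and 5, 1, 1 and 0 reads with FSH. In the fit without a filter it came to 0.47 on the log2 scale (SE 0.93, 95% interval −1.57 to 2.51, edgeR adjusted p = 0.891), and without FSH replicate 1, which held 5 of the 7 FSH reads, it was −0.76. Fstl3 (ENSRNOG00000009311) encodes a follistatin-like protein that also binds activin. It had 6, 8, 7, 5 and 7 reads with vehicle and 6, 6, 1 and 1 reads with FSH. FSH replicates 3 and 4 lay below all other libraries, at 0.0386 and 0.0432 CPM, and FSH replicates 1 and 2 lay within the vehicle range of 0.197 to 0.372 CPM. That fit gave a log2 fold change of −0.96 (SE 0.52, 95% interval −2.09 to 0.17, edgeR adjusted p = 0.585), from 14 reads with FSH and 33 with vehicle. Leaving out 1 animal moved it between −1.34 and −0.65. FSH replicates 3 and 4 were also the FSH animals with the lowest Inhba.

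Among the receptor genes, Acvr1b and Acvr2a varied least between animals. The coefficient of variation of Acvr1b was 8.09% with FSH and 12.5% with vehicle, that of Acvr2a 13.5 and 6.53%, and that of Acvr2b 28.5 and 23.0%. Acvr1b (ENSRNOG00000006934), the type I receptor ALK4, was at 20.9, 26.6, 19.1, 21.9 and 22.0 CPM in vehicle replicates 1 to 5 and 25.6, 26.6, 22.5 and 23.0 CPM in FSH replicates 1 to 4. The FSH animals all lay above 4 of the 5 vehicle animals, and vehicle replicate 2 was as high as the highest of them. The fitted log2 fold change was 0.14 (SE 0.10, 95% interval −0.08 to 0.37, edgeR adjusted p = 0.624). Acvr2a (ENSRNOG00000005334), a type II receptor, was at 16.9, 19.1, 19.2, 18.2 and 20.1 CPM with vehicle and 24.1, 17.7, 20.05 and 19.4 CPM with FSH. FSH replicate 1 stood above the rest, which overlapped. The fitted log2 fold change was 0.12 (SE 0.10, 95% interval −0.10 to 0.33, edgeR adjusted p = 0.685). It was 0.024 when that animal was left out. For Acvr1b and Acvr2a the intervals leave room for at most 1.29 and 1.26 times the vehicle level.

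Acvr2b (ENSRNOG00000014477), the other type II receptor, had 9 to 23 reads. It was at 0.471, 0.792, 0.812, 0.828 and 0.585 CPM with vehicle and 0.715, 0.406, 0.578 and 0.821 CPM with FSH. The ranges were nearly the same, and the log2 fold change was −0.17 (SE 0.26, 95% interval −0.76 to 0.41, edgeR adjusted p = 0.846). It was −0.015 when FSH replicate 2 was left out.

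**Figure D4:**
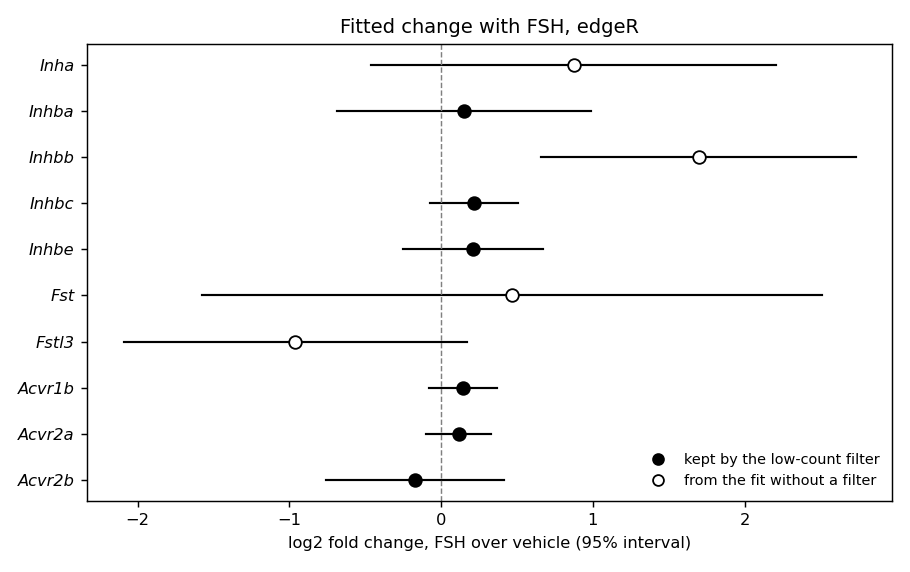
Log2 fold change of each of the 10 genes, FSH over vehicle, with its 95% interval from edgeR; filled points come from the fit with the low-count filter and open points from the fit without it. The interval of Inhbb (0.66 to 2.73) lies above 0 before adjustment, and those of the other 9 genes include 0.

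The other genes of the pathway were described in 6 lists: receptors, Smads, ligands, antagonists, proprotein convertases and Smad targets. A further list of gonadotropin axis genes had 0 tested members. Of 80 different genes in the 7 lists 58 could be tested, and 0 passed a false discovery rate of 0.05 in edgeR. At an unadjusted p under 0.05 there were 12 of 58 (20.7%), 8 higher and 4 lower, and the share of all genes tested is 11.6%. The groups did not overlap for 5 of the 58 (8.62%), against 4.11% of all genes tested. The median log2 fold change of the 58 was 0.08. DESeq2 called 1 of them (1.72%), Ski, a share near the 1.54% it called of all genes.

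Among other receptors and co-receptors, 11 of 12 had positive fold changes (median 0.17). Of the 12, 5 (41.7%) had an unadjusted p under 0.05, 4 higher and 1 lower, against 11.6% of all genes tested. Tgfbr1, the type I receptor for TGF-beta, was at 11.2, 14.9, 15.3, 15.5 and 16.3 CPM with vehicle and 21.5, 16.5, 18.4 and 18.1 CPM with FSH. The groups were apart, and the log2 fold change was 0.35 (adjusted p = 0.323 in edgeR, SE 0.12). Bambi, a decoy receptor that lacks the kinase domain, was at 3.40, 5.43, 3.71, 3.75 and 3.30 CPM with vehicle and 2.42, 2.88, 2.78 and 2.59 CPM with FSH. It was lower in every FSH animal (log2 fold change −0.56, SE 0.17, edgeR adjusted p = 0.278). A pair of further receptors was named after their values were seen, because of their role. Acvr1c, the type I receptor ALK7 used by several activins, was at 0.785 to 1.28 CPM with vehicle and 1.03 to 1.73 CPM with FSH (0.46, SE 0.21, edgeR adjusted p = 0.432). Tgfbr3, betaglycan, the co-receptor through which inhibin holds the type II receptor, was at 12.3 to 15.3 CPM and 14.2 to 20.6 CPM (0.27, SE 0.12, edgeR adjusted p = 0.417). The value of Tgfbr3 was 0.15 without FSH replicate 1.

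Ski, a repressor that binds Smads, had the smallest p of the Smad list. It was at 17.4, 17.0, 23.3, 21.1 and 21.7 CPM with vehicle and 27.3, 27.4, 24.7 and 29.1 CPM with FSH, with no overlap. The fitted log2 change was 0.43 (SE 0.10), with an adjusted p of 0.204 in edgeR and 0.0323 in DESeq2, and 0.0323 to 0.367 over all alternatives run. Smad1, which carries signals of bone morphogenetic proteins, had 0.19 (SE 0.07, edgeR adjusted p = 0.390). In all, 11 of 14 genes of this list had positive fold changes (median 0.10).

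Ligands, antagonists and convertases held no gene with an unadjusted p under 0.05. Among the ligands 9 of 12 had negative fold changes (median −0.07). Those with the smallest p were Bmp2 at 0.38 (SE 0.19, edgeR adjusted p = 0.485) and Tgfb2 at −0.60 (SE 0.38, edgeR adjusted p = 0.580). Leaving out FSH replicate 1 brought Bmp2 to 0.17, and leaving out vehicle replicate 5 brought Tgfb2 to −0.29. Among the antagonists 3 of 7 were positive, with −0.43 (SE 0.22) for Wfikkn1, a binder of myostatin and GDF11 that was −0.24 without FSH replicate 1, and 0.36 (SE 0.22) for Bmper, a binder of bone morphogenetic proteins. Convertases cut the precursors of these ligands. Pcsk6 had 0.41 (SE 0.20, edgeR adjusted p = 0.461), with 150 CPM in FSH replicate 1 and 0.16 without that animal. Pcsk7 had −0.15 (SE 0.09), which was −0.095 without vehicle replicate 2.

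Of 14 genes known to respond to Smads, 5 (35.7%) had an unadjusted p under 0.05, 2 higher and 3 lower. The share of all genes tested is 11.6%. Ctgf, a matrix protein gene, was at 6.28, 9.25, 5.37, 4.34 and 4.94 CPM with vehicle and 3.37, 4.02, 3.43 and 3.50 CPM with FSH. It was lower in every FSH animal (log2 fold change −0.76, SE 0.21, edgeR adjusted p = 0.250). Id3, an inhibitor of transcription factors that responds to bone morphogenetic proteins, was at 21.5, 18.9, 21.2, 30.7 and 20.2 CPM with vehicle and 32.8, 29.7, 26.8 and 31.0 CPM with FSH. Its groups overlapped through vehicle replicate 4 (0.42, SE 0.14, edgeR adjusted p = 0.319). The median of this list was 0.10.

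Marker lists of liver cell types were summed beside these genes, and no marker in any of them passed a false discovery rate of 0.05 in edgeR. For the 7 sinusoidal endothelial markers in the table the summed level was 169 to 224 CPM with vehicle and 199 to 255 CPM with FSH. An unadjusted p under 0.05 was found for 4 of the 7, all higher, and for 11.6% of all genes tested. For 10 stellate cell markers the sum was 359 to 403 CPM with vehicle and 293 to 360 CPM with FSH, and 2 of the 10 had an unadjusted p under 0.05, both lower. For 8 hepatocyte markers the sum, which is mostly Alb, was 158365 to 202387 CPM with vehicle and 134136 to 237245 CPM with FSH. Of these 8, 3 had positive and 5 negative fold changes (median −0.05). An unadjusted p under 0.05 was found for 2 of them, both higher. They were Fgb, a fibrinogen chain (0.55, SE 0.18, edgeR adjusted p = 0.312), and Asgr1, an asialoglycoprotein receptor subunit (0.26, SE 0.10, edgeR adjusted p = 0.363). The summed levels of the groups overlapped in all 3 lists, for stellate cells only from 358.9 to 359.6 CPM. Single markers did lie apart: 2 of 7 endothelial markers (28.6%), both higher with FSH, and 1 of 10 stellate markers (10%), lower with FSH. For hepatocytes it was 0 of 8, and the share of all genes tested is 4.11%. Fold changes were positive for 6 of the 7 endothelial markers and negative for 9 of the 10 stellate markers. DESeq2 called 1 of 7 sinusoidal endothelial markers, Clec4g, 1 of 10 stellate cell markers, Col3a1, and 0 of 8 hepatocyte markers. Its share of all genes tested was 1.54%. The lists for Kupffer cells, cholangiocytes and mesothelial cells held 0 markers with an unadjusted p under 0.05. No sinusoidal, stellate or hepatocyte marker found in the table was at 0 in all libraries. The part of these cells in the values of Bambi, Tgfbr1, Ctgf, Inhbc, Inhbe and the other pathway genes was not tested.

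**Figure D5:**
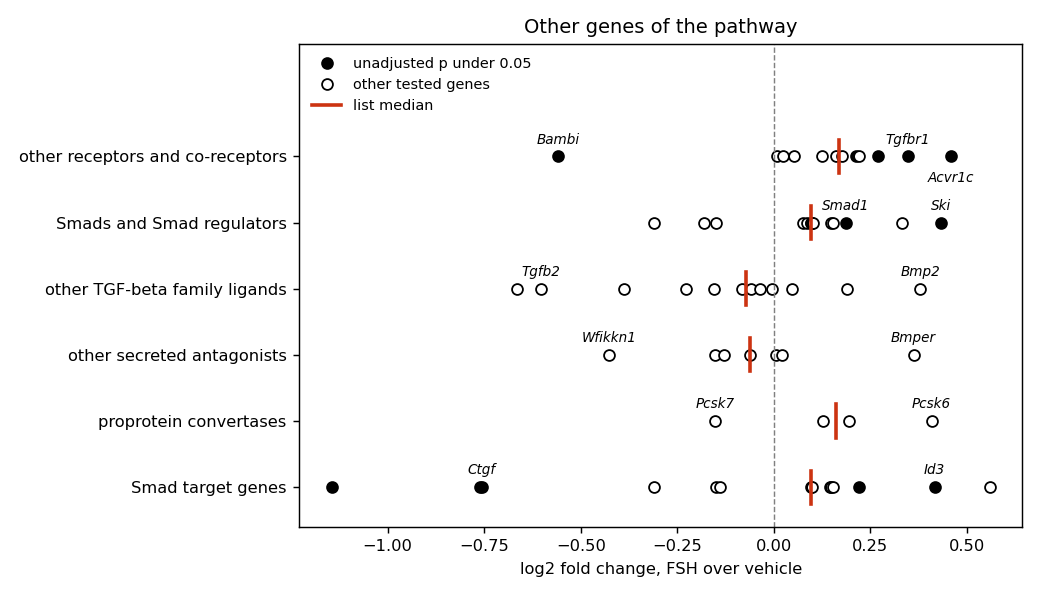
Log2 fold change, FSH over vehicle, of each tested gene in 6 pathway lists; filled points have an unadjusted p under 0.05, and red bars are list medians. No gene passed the adjusted threshold in edgeR, and the medians lie between −0.07 and 0.17.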

How the data were processed

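The authors deposited 1 table of whole-number read counts per gene, not normalised, for strand-specific paired-end mRNA libraries of 9 rat livers, per the labels' protocols. STAR, edgeR, DESeq2 and rn6 are named, without versions or roles, per the submitters' processing notes; no source used here gives the annotation, the counter or its strand setting. Columns were matched to samples by label.

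edgeR 4.0.16 in R 4.3.3 tested FSH against vehicle with its quasi-likelihood test, after its default TMM scaling and its low-count filter by group. P-values were adjusted by Benjamini-Hochberg over the 11924 genes kept, with a threshold of 0.05. Members below the filter come from the same fit on 15628 genes with at least 1 read. Standard errors and 95% intervals were derived from the F statistic. Alternatives were DESeq2 1.42.0, limma-voom 3.58.1, other scalings and filters, a replicate block and leaving out each animal. Libraries of a group differed beyond counting noise (chi-square per degree of freedom at least 25.9). FSH replicate 1 stood farthest from its group, with 77.8, 83.8 and 148, and no other pair was above 64.9.

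The members and gene lists were chosen with earlier results of these data known. Named besides the members were the 2 genes with the smallest p of each list and the 3 genes most like Inhbc and Inhbe. Acvr1c, Tgfbr3 and the markers Fgb, Asgr1, Clec4g and Col3a1 were named after their values were seen. Correlations used scipy 1.17.1. Motifs were chosen with the promoters at hand, and 33465 RefSeq promoters (GRCr8) served as background.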

Additional observations from a re-analysis of the deposited data

Results flagged for a closer look

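For each of the 10 genes and each group, the highest and the lowest animal were compared with the spread of the others, 20 sets of values in all, of which chance flags about 1. In 1 set an animal stood apart: Inha in FSH replicate 3 was at 0.193 CPM, and the next FSH animal was at 0.130 CPM. These are 5 reads against 3.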

How the results depend on the processing

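DESeq2 gave no adjusted p for Inha, Inhbb, Fst, Fstl3 and Acvr2b and so could not call them. No member passed the threshold under any alternative run that gave it an adjusted p. The number of genes past it was 4, and it was 184 with DESeq2, 5 with the replicate block and between 0 and 4 when 1 animal was left out (0 without vehicle replicate 1 or 4 or FSH replicate 1 or 3, 1 without FSH replicate 4, and 2 without vehicle replicate 3 or 5). Same-numbered animals did not deviate together (correlations −0.04 to 0.04). No label states a pairing of animals across the groups, and these correlations cannot exclude one with a weak effect. The number of members whose groups lie apart was 1, with 0 under library totals alone and between 1 and 3 without 1 animal: Acvr1b joined Inhbb without vehicle replicate 2, and Inha and Fstl3 joined it without vehicle replicate 4. The fold change of Inhba turned to −0.055 with limma-voom and lay between −0.22 and 0.37 without 1 animal, and that of Fst between −0.76 and 0.84. The other 8 members and the pathway genes named kept their direction. Those genes and the correlation of Inhbc with Inhbe were put through the alternatives after seeing the data. Inha, Inhbb, Fst, Fstl3 and Acvr2b gave no value with at least 1 CPM required in 4 samples. At 19295580 to 28672439 counts per library, Inha, Inhbb, Fst and Fstl3 had at most 18 reads in any library.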
